A study of Rattus norvegicus with 8 samples.

Results

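The genes studied here encode the plasminogen activators Plau and Plat, the receptor Plaur, the serpins Serpine2 and Serpinf1, the clotting initiator F3, and the anticoagulants Thbd, Tfpi and Tfpi2. These 9 genes were fixed by name and were read from the deposited expression table of 15590 genes by their gene symbols, and each had a single row. RNA came from right Achilles tendons of wild-type (WT) male Sprague-Dawley rats that were 8 to 10 weeks old by the methods of the study. In the 0 h p.r. (post-run) group, called runners below, 4 rats had run uphill for 1 h on a treadmill at 20 m/min and a 10° incline, urged by airflow and a mild electric stimulus, with collection 0 h after the run. In the naïve control (NC) group, called controls, 4 rats had kept normal cage activity. By the study's methods the control rats of the running experiment were killed together with a group rested for 12 h after running. The sample titles state immediate killing for the runners and no time of killing for the controls. Running, its stimuli and the hour of collection therefore cannot be told apart. Nothing in the labels describes a batch, and each library was taken as 1 rat.

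The plasminogen system dissolves fibrin and opens the pericellular matrix. Urokinase (Plau), held at the cell surface by its receptor (Plaur), and tissue-type activator (Plat) cut plasminogen to the protease plasmin. Serpins trap these activators, and Serpine2 also traps thrombin. Coagulation is set off when tissue factor (F3) meets clotting factor VII, which Tfpi blocks, while thrombomodulin (Thbd) turns thrombin toward the activation of protein C. In tendon, such genes belong to the fibroblasts as well as to the vessels that run through the tissue.

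Expression was measured as FPKM, which is the number of sequenced fragments scaled to gene length and to library size, so that levels of different genes can be set side by side. The libraries held 10660131 to 17464752 reads in listed genes, as recovered from the steps between the values. The thinnest member, Tfpi2, had 61 to 104 reads per NC library and 140 to 239 per 0 h p.r. library, and Plaur had 73 to 183 and 445 to 1076. Tnmd, a tenocyte gene, marked tendon in all libraries and spanned 90.5 to 348 FPKM among controls and 87.0 to 225 among runners. Genes of muscle and fat were abundant as well. Acta1 spanned 2092 to 2817 FPKM among controls and 382 to 12258 among runners, and Fabp4 spanned 1607 to 3252 and 643 to 1311. All 9 genes passed the filter on low values (at least 0.5 FPKM in at least 4 libraries) and were compared with limma on log2(FPKM + 0.5), p-values being adjusted by Benjamini and Hochberg's method over 13863 genes.

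Plaur, Plat, Plau and Tfpi2 were higher after running in limma, and the other 5 genes did not pass that test. The study's own test, DESeq2 on counts, was not repeated. With the study's thresholds, a fold of 2 or more and an adjusted p below 0.05, limma called 2 of the 9 genes higher, Plaur and Plat, where 1.8% of all tested genes were called higher and 2.7% in either direction. At any fold it called 4 of the 9 higher, adding Plau and Tfpi2, where 3.49% of tested genes were called higher and 5.72% either way. No member was called lower at either threshold, where 0.894% and 2.23% of tested genes were. For the same 4 genes every runner lay above every control, against 8.15% of tested genes that were apart in this direction and 7.47% in the other (15.6% in all). The median log2 fold change over the 9 genes was 0.75, and over all tested genes it was -0.0014. Because the genes were chosen with earlier results of these data known, these counts are descriptions.

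**Figure D1:**
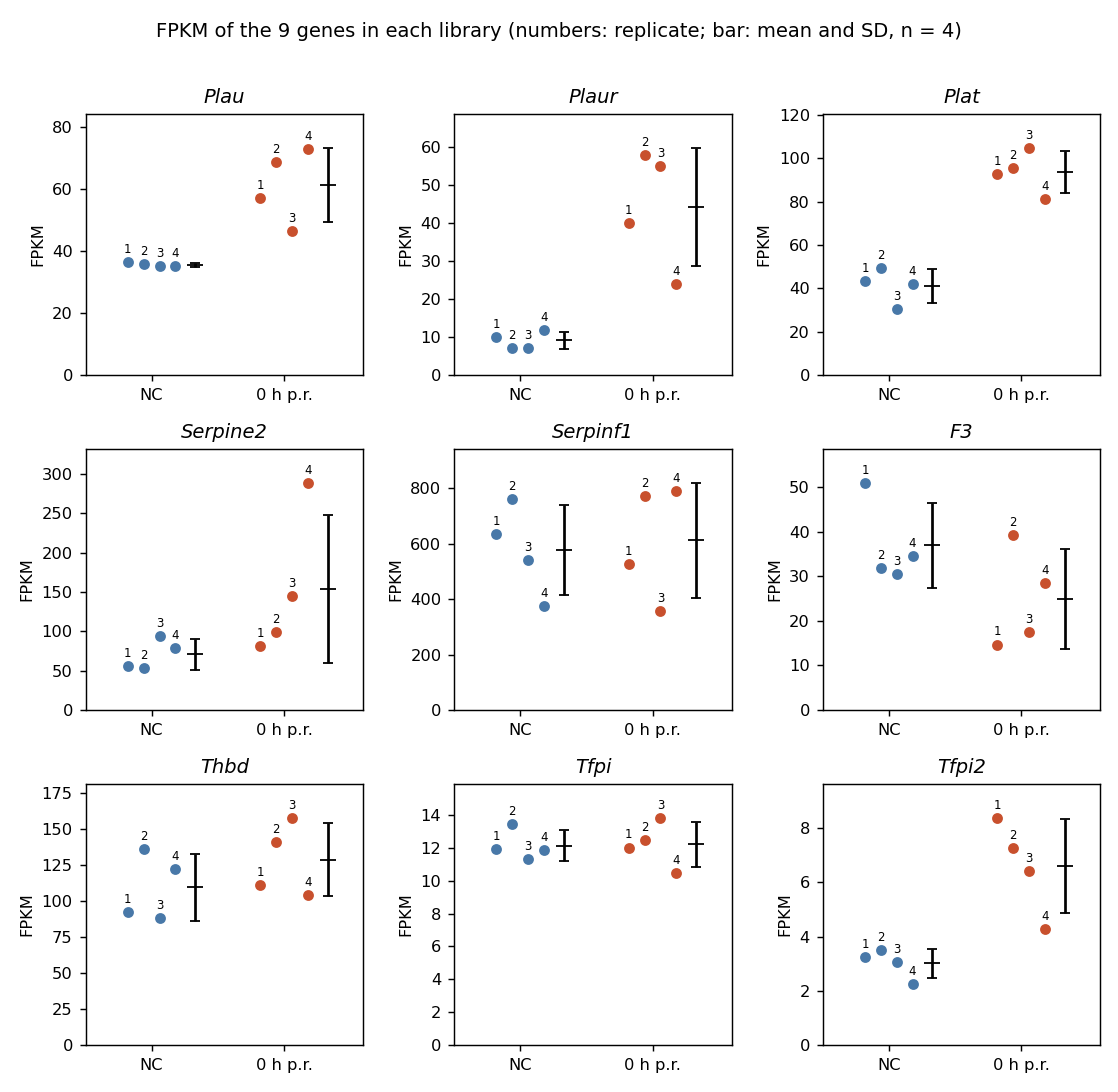
FPKM (vertical axis, from 0) of each of the 9 genes in the 4 NC and the 4 0 h p.r. libraries. Each point is 1 library with its replicate number, and the bar gives the mean and SD. The groups are apart for Plau, Plaur, Plat and Tfpi2 and overlap for the other 5 genes.

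Plaur (ENSRNOG00000037931), which anchors urokinase at the cell surface, had the largest change of the members. Its FPKM was 10.04, 7.19, 7.24 and 11.997 in control replicates 1 to 4 and 39.9, 57.9, 55.0 and 24.0 in runners 1 to 4. Every runner lay above every control, and replicate 4 was the lowest runner. The mean went from 9.12 ± 2.34 to 44.2 ± 15.6 FPKM (SD, n = 4), a log2 fold change of 2.17 (SE 0.29, 95% confidence interval 1.53 to 2.81, limma adjusted p 0.00518). With this rise Plaur moved from the 53.3rd to the 87.7th percentile of mean FPKM among tested genes.

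Plat (ENSRNOG00000019018), the activator that works best on fibrin, had 43.4, 49.3, 30.6 and 42.0 FPKM in the controls and 92.9, 95.6, 104.8 and 81.4 in the runners. The runners were close to each other, with a coefficient of variation of 10.3%, and all lay above the controls. Plat rose from 41.3 ± 7.83 to 93.7 ± 9.64 FPKM (SD, n = 4), a log2 fold change of 1.19 (SE 0.16, interval 0.83 to 1.55, limma adjusted p 0.00549). Plaur and Plat stayed called whichever of the 8 rats was dropped, with adjusted p of at most 0.0203 and 0.0257.

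Plau (ENSRNOG00000010516), the urokinase gene, had 36.5, 35.8, 35.3 and 35.1 FPKM in NC, the smallest spread of the 9 genes relative to level (coefficient of variation 1.82%), and 57.3, 68.8, 46.4 and 73.0 in the runners. All runners lay above the controls, with replicate 3 nearest to them. The rise from 35.7 ± 0.648 to 61.4 ± 11.97 FPKM (SD, n = 4) was smaller than that of Plat (log2 fold change 0.75, SE 0.15, interval 0.42 to 1.09, limma adjusted p 0.0233). This corresponds to a fold of 1.69, under the threshold of 2. Dropping a single rat ended the call in 5 of 8 cases (adjusted p at most 0.0850, with runner 2 dropped), and so did quantile scaling (0.0523) and setting the library sums equal (0.192).

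The receptor was also set against its ligand within each library. The ratio of Plaur to Plau FPKM was 0.275, 0.201, 0.205 and 0.342 in the controls and 0.696, 0.841, 1.19 and 0.329 in the runners. In 3 runners the ratio lay above all controls, and replicate 4 lay within their range. Plat over Plau was 1.16 ± 0.213 in the controls and 1.596 ± 0.487 in the runners (SD, n = 4), with groups that overlapped. These ratios were not tested.

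Among F3, Thbd, Tfpi and Tfpi2, limma called Tfpi2 higher at any fold, where 3.49% of tested genes were. Tfpi2 (ENSRNOG00000010513) encodes a Kunitz-type protease inhibitor that acts on plasmin and is laid down in the matrix. Its FPKM was 3.23, 3.51, 3.05 and 2.26 in the controls and 8.39, 7.28, 6.42 and 4.28 in the runners. The groups were apart, and replicate 4 was again the lowest runner. Tfpi2 rose from 3.01 ± 0.535 to 6.59 ± 1.74 FPKM (SD, n = 4), a log2 fold change of 0.99 (SE 0.21, interval 0.51 to 1.47, limma adjusted p 0.0324), just under a fold of 2. It passed a fold of 2 while called under some alternatives, such as quantile scaling (1.01) and voom (1.11). Dropping a single rat ended the call in 6 of 8 cases (adjusted p at most 0.105, with runner 2 dropped) and not for control 2 or runner 4, and setting the library sums equal ended it as well (0.0741).

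Its relative Tfpi (ENSRNOG00000005039), the inhibitor of the tissue factor pathway, was not called. Its FPKM was 11.96, 13.5, 11.3 and 11.9 in the controls and 12.03, 12.5, 13.9 and 10.5 in the runners. The ranges lay over each other. The log2 fold change was 0.0035 (SE 0.12, limma adjusted p 0.991) and its interval of -0.26 to 0.27 holds folds from 0.833 to 1.21. The ratio of Tfpi2 to Tfpi was 0.191 to 0.270 in the controls and 0.408 to 0.698 in the runners.

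F3 (ENSRNOG00000011800) encodes tissue factor, the membrane protein that starts clotting. It had 51.0, 31.9, 30.4 and 34.5 FPKM in the controls and 14.7, 39.3, 17.5 and 28.4 in the runners. In 3 runners F3 lay below every control, while replicate 2 lay above 3 of them. The log2 fold change of -0.63 (SE 0.30, interval -1.31 to 0.056) did not pass (limma adjusted p 0.262), and the coefficient of variation was 45.0% among the runners and 25.8% among the controls.

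Thbd (ENSRNOG00000004687), the thrombin receptor of vessel walls, had 92.2, 135.9, 88.1 and 122 FPKM in the controls and 111, 141, 158 and 104.1 in the runners. The groups overlapped, with a log2 fold change of 0.23 (SE 0.19, interval -0.21 to 0.67, limma adjusted p 0.540). F3 over Thbd was 0.234 to 0.553 in the controls and 0.111 to 0.279 in the runners, with an overlap, and was not tested.

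The serpin members did not pass the limma test. The study, by its own DESeq2 test, lists Serpine2 among its differentially expressed genes at 0 h p.r., so the 2 methods differ for this gene. Serpine2 (ENSRNOG00000015461), also called protease nexin, traps thrombin, urokinase and plasmin. Its FPKM was 55.6, 53.8, 94.6 and 78.2 in the controls and 80.9, 98.6, 145 and 289 in the runners. Only 0 h p.r. replicate 1 lay within the range of the controls, and replicate 4 stood at 3.57 times the level of replicate 1. The log2 fold change was 0.97 with an SE of 0.37 (interval 0.13 to 1.82, limma adjusted p 0.163). Without 0 h p.r. replicate 4 it was 0.61.

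Serpinf1 (ENSRNOG00000003172) encodes pigment epithelium-derived factor, a serpin that does not inhibit proteases and binds collagen. It was by far the most abundant member, with 636, 760, 539 and 375 FPKM in the controls and 526, 772, 359 and 791 in the runners. The ranges lay over each other, and each group spread over about the same span. The log2 fold change was 0.059 (SE 0.31, interval -0.64 to 0.76, limma adjusted p 0.940).

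**Figure D2:**
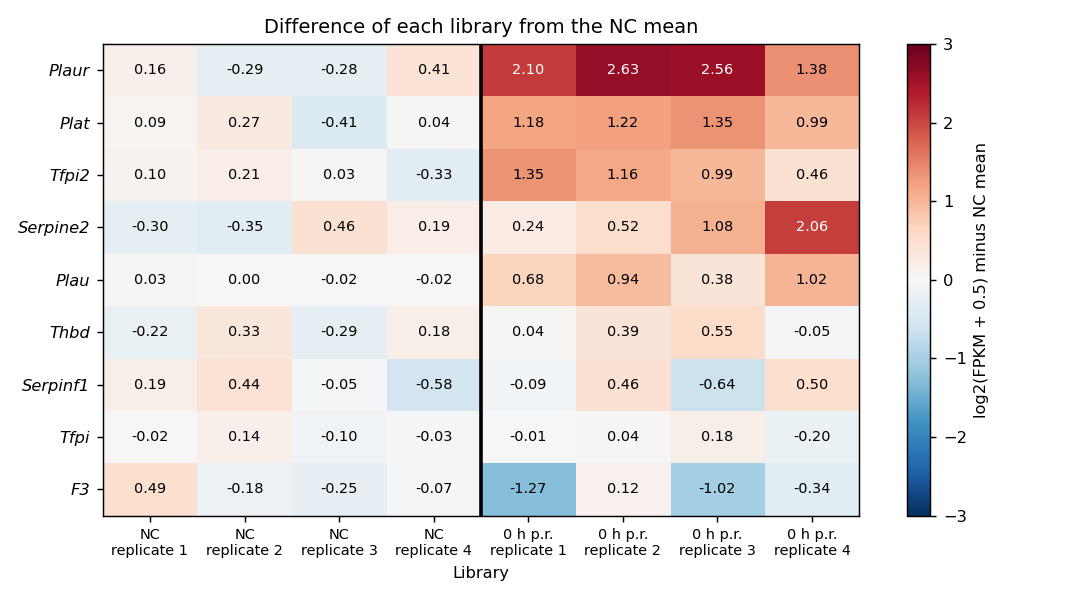
Difference of each library (columns) from the NC mean on the log2(FPKM + 0.5) scale, for the 9 genes (rows, ordered by fold change). Red is above and blue below the NC mean, and the line parts NC from 0 h p.r. Replicate 4 of 0 h p.r. has the smallest rise of Plaur (1.38), Plat (0.99) and Tfpi2 (0.46) and the largest of Plau (1.02) and Serpine2 (2.06).

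The runners did not keep 1 order across these genes, as the map of library differences shows. Replicate 4 of 0 h p.r. had the smallest difference from the NC mean for Plaur, Plat and Tfpi2 (1.38, 0.99 and 0.46 on the log2 scale). The same library had the largest for Plau and Serpine2 (1.02 and 2.06). Replicate 3 had the largest for Plat (1.35) and the smallest for Plau (0.38). Skeletal muscle markers also differed between the runners, with a summed FPKM of 33250 in replicate 1, 15065 in replicate 3, 5626 in replicate 2 and 973 in replicate 4, against 3397 to 6576 in NC.

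By level, the order in NC was Serpinf1, Thbd, Serpine2, Plat, F3, Plau, Tfpi, Plaur and Tfpi2. The ranges of the libraries overlapped between Thbd and Serpine2, between Plat and F3, between F3 and Plau, and between Tfpi and Plaur, so these neighbours were not apart by their spread. In 0 h p.r. the order was Serpinf1, Serpine2, Thbd, Plat, Plau, Plaur, F3, Tfpi and Tfpi2. Here the ranges overlapped for Serpine2 and Thbd, Thbd and Plat, Plau and Plaur, and Plaur and F3. Plaur stood below F3 in every control and above it in 3 of 4 runners.

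Promoter sequence was set beside these values because Plaur, Plau and Tfpi2 were all called higher while Tfpi was not. RefSeq promoter windows of the rat build GRCr8 matched 6 of the 9 genes (7 windows, as Tfpi has 2 starts), without an entry for Plat, F3 or Thbd, and the 250 bases before each start were searched on both strands. The windows of Plaur, Tfpi2 and Plau, 3 of the 4 called genes, and of Tfpi are printed in lower case on the strand of the gene, 5′ to 3′, with every motif match in capitals.
Plaur (chr1:89181113-89181362, plus strand): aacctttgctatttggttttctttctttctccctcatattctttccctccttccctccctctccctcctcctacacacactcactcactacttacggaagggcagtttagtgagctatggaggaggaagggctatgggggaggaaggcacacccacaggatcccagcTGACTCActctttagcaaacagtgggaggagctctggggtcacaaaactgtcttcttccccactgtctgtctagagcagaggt
Tfpi2 (chr4:32941277-32941526, minus strand): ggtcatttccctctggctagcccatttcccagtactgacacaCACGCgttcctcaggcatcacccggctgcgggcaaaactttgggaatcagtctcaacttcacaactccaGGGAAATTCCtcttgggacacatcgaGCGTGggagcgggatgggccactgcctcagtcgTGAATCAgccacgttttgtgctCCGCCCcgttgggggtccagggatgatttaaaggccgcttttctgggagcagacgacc
Plau (chr15:3511988-3512237, minus strand): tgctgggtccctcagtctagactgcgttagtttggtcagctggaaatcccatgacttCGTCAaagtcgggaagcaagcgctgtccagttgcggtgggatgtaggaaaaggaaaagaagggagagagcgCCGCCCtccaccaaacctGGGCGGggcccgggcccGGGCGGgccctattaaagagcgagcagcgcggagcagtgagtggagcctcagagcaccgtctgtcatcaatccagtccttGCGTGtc
Tfpi, start 1 (chr3:89980725-89980974, minus strand): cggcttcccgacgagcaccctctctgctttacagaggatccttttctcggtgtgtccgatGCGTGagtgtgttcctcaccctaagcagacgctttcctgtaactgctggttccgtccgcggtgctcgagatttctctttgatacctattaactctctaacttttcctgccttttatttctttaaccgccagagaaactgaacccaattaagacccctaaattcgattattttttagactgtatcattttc
Tfpi, start 2 (chr3:89983544-89983793, minus strand): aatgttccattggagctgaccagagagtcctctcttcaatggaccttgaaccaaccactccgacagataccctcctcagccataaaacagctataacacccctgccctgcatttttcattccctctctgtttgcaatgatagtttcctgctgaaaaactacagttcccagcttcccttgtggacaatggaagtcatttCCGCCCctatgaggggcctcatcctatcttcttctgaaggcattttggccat

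Plaur and Tfpi2 each held a match to the AP-1 motif (TGANTCA, which reads the same on both strands), at -83 to -77 and at -80 to -74 from the start. Such a match was present in 2 of the 7 windows and in 6.34% of 33469 promoter windows of this length. The Tfpi2 window also held a match to the NF-kB motif at -139 to -130, which 6.33% of windows hold. Plau had 3 matches to the Sp1 and KLF motif (GGGCGG), 1 to the hypoxia element (GCGTG) and 1 to the 5-letter form of the cAMP response element (TGACG). These are found in 30.5%, 25.9% and 18.2% of all windows. Tfpi2 also held 1 match to the Sp1 and KLF motif and 2 hypoxia elements. Tfpi held 1 hypoxia element before the first start and 1 Sp1 and KLF match before the second, and of the windows not printed, Serpine2 held 6 Sp1 and KLF matches and Serpinf1 held 1 hypoxia element. No window of the 7 held a match to the full cAMP response element (TGACGTCA), the EGR motif (GCGTGGGCG), the heat shock element (GAANNTTC), the serum response element or the TATA box (TATAAA), which 1.59%, 0.478%, 7.23%, 1.5% and 12.9% of all windows hold. A match is a description of letters and no measurement of binding.

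**Figure D3:**
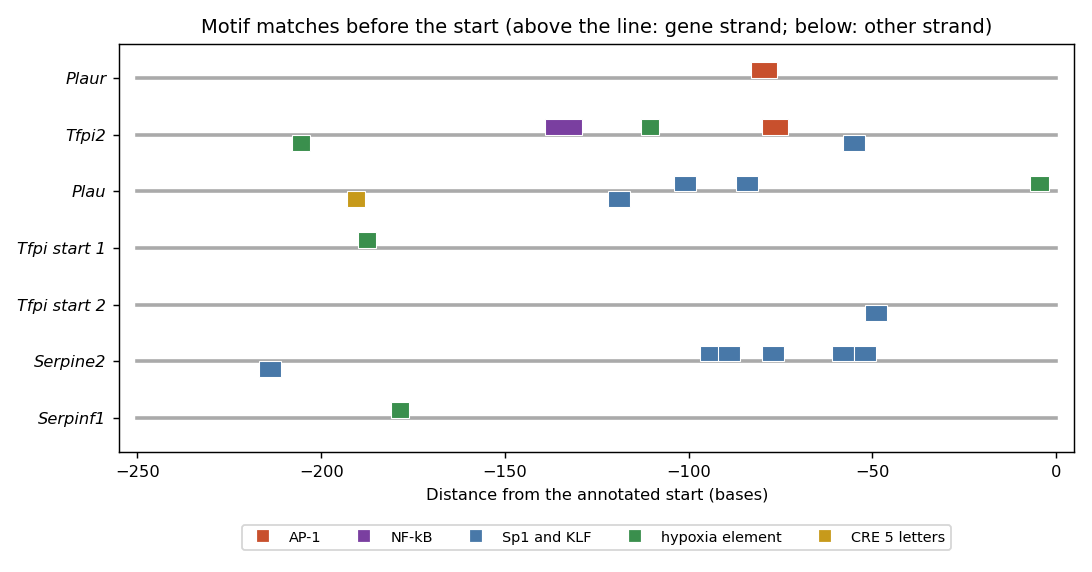
Motif matches in the 250 bases before the start (horizontal axis, distance in bases) for the 7 promoter windows of 6 genes. Boxes above a line are on the strand of the gene and boxes below on the other strand, and AP-1 matches, which lie on both strands, are drawn above. AP-1 matches lie at -83 to -77 in Plaur and at -80 to -74 in Tfpi2, and the other 5 windows hold none.

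To place the members in their pathways, 59 further genes of fibrinolysis, coagulation, anticoagulants, protease receptors and serpins were reported on. The table holds 36 of them, and 28 passed the filter. Limma called 1 of these 28 higher, Procr, which also passed a fold of 2, where 3.49% of all tested genes were called higher at any fold, so that this share is near that of all genes. None was called lower, and their median log2 fold change was 0.12. Of the 6 tested fibrinolysis genes reported beside the members, limma and voom each called 0, and 1 had an unadjusted p under 0.05, as had 22.6% of all tested genes in limma.

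The plasminogen gene itself, Plg, was under the filter with at most 11 reads in a library, and the plasmin inhibitor gene Serpinf2 with at most 15. Anxa2 and S100a10, whose products form a plasminogen-binding complex on cells, were abundant and were not called. Anxa2 lay at 538 ± 98.8 FPKM in the controls and 622 ± 83.5 in the runners, and S100a10 at 869.6 ± 215 and 869.7 ± 76.7 (SD, n = 4). Eno1 and Lrp1, a further plasminogen receptor and the clearance receptor of inhibitor complexes, had log2 fold changes of 0.35 and 0.11 (limma adjusted p 0.214 and 0.883).

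Limma called 0 of the 8 tested genes of the coagulation cascade (F3 included, 20 listed), where 5.72% of all tested genes were called in either direction. At an unadjusted p under 0.05 there was 1 of the 8, and voom called 0 of the 7 beside F3. Besides F3, the most abundant were Tgm2 (log2 fold change -0.30), Vwf (-0.0051), Vkorc1 (-0.037) and F13a1 (0.48), with limma adjusted p of 0.364 to 0.994. In the anticoagulant list, Procr, the endothelial receptor of protein C, was the only called gene of 5 tested beside the members. It had 31.6, 41.9, 23.7 and 44.8 FPKM in the controls and 51.6, 95.2, 105 and 66.5 in the runners, with the groups apart. Its log2 fold change was 1.14 (SE 0.27, interval 0.53 to 1.75, limma adjusted p 0.0431), which did not survive the drop of 1 rat in 6 of 8 cases (at most 0.128, with runner 2 dropped). It was not called with the library sums set equal (0.113) or with quantile scaling (0.0640). Anxa5, Gas6, Spint2 and Pros1 had log2 fold changes of -0.12, -0.11, 0.36 and -0.079 (limma adjusted p 0.686, 0.670, 0.310 and 0.765).

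Of the 4 protease receptor genes reported beside the members, limma and voom each called 0, and 1 had an unadjusted p under 0.05. The thrombin receptor gene F2r (log2 fold change 0.19, limma adjusted p 0.635) did not pass, and neither did F2rl1 (1.13, adjusted p 0.161), whose product is cut by trypsin-like proteases. The study, by its DESeq2 test, does list F2rl1 as differentially expressed at 0 h p.r. Vldlr did not pass either (0.19, adjusted p 0.609).

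Of the 7 serpins of the last list tested beside Serpine2 and Serpinf1, limma and voom each called 0, and 1 had an unadjusted p under 0.05. The abundant Serpinh1, the collagen chaperone, lay at 428 ± 24.2 FPKM in the controls and 375 ± 29.2 in the runners (SD, n = 4), with a log2 fold change of -0.19 (limma adjusted p 0.454). Serping1, the complement inhibitor, had a log2 fold change of 0.41 (adjusted p 0.395). Serpinb6a had a log2 fold change of 0.037 (adjusted p 0.945). Serpina1, the gene of antitrypsin, had the largest fold of the list, at 8.94, 4.07, 13.3 and 27.1 FPKM in the controls and 20.5, 51.0, 83.4 and 159 in the runners. The groups overlapped, and its log2 fold change of 2.44 (SE 0.67) did not pass (limma adjusted p 0.0670).

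**Figure D4:**
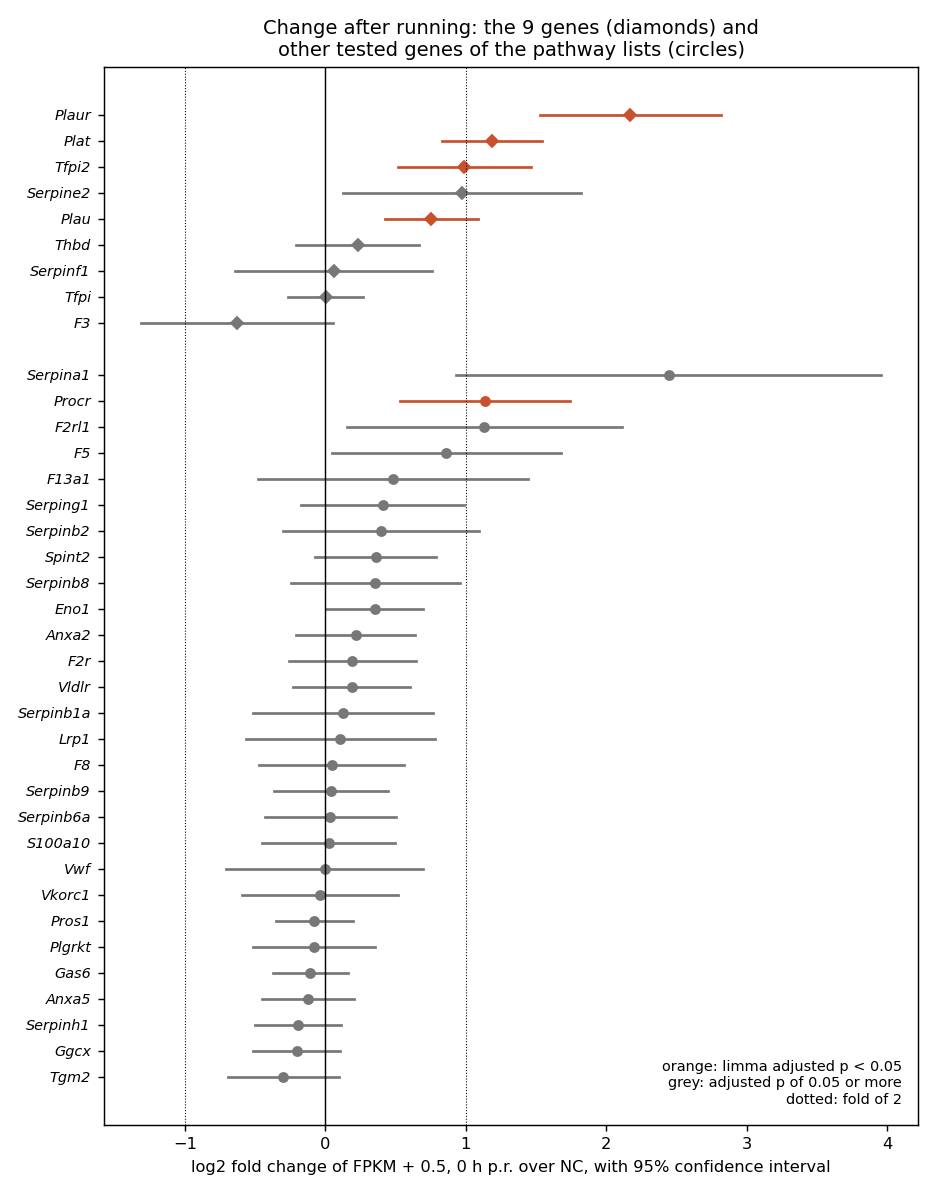
Log2 fold change of FPKM + 0.5 in 0 h p.r. over NC (horizontal axis) with its 95% confidence interval, for the 9 genes (diamonds) and the 28 further tested genes of the pathway lists (circles). Orange marks a limma adjusted p under 0.05, which 4 of the 9 and 1 of the 28 genes have, all on the side of the runners.

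Dissected tendon holds vessels, fat and muscle, and in such bulk RNA fewer cells of a type and less RNA per cell cannot be told apart. Endothelial markers, of interest for Thbd, Procr, Tfpi and Plat, had a summed FPKM of 515 to 639 in the controls and 508 to 726 in the runners, and 1 of 9 tested was called (Egfl7, log2 fold change 0.75, limma adjusted p 0.0270). Macrophage markers summed to 305 to 638 and 377 to 931 with 0 of 7 called, and platelet markers to 29.7 to 51.3 and 20.6 to 49.8 with 0 of 2 called. Neutrophil markers summed to 1.44 to 4.67 FPKM in the controls and 1.51 to 2.24 in the runners. Of these, S100a9 was called higher and Mpo lower, and Csf3r and Cxcr2 were at 0 in at least 1 library. Adipocyte markers were lower in the runners (5 of 7 tested called, summed FPKM 2577 to 4832 in the controls and 873 to 1874 in the runners). Tenocyte markers summed to 3777 to 7451 and 4154 to 7450 with 0 of 8 called. Of all tested genes, 3.49% were called higher and 2.23% lower at any fold. A count of 0 in lists this short is near these shares. Of 13 clock genes, Ciart was called higher (log2 fold change 2.28, limma adjusted p 0.0415), and voom called 0 of them. At an unadjusted p under 0.05 there were 4 of the 13, against 22.6% of all tested genes. Among them, Ciart, Per1 and Cry2 were higher in every runner than in every control, as were 8.15% of tested genes. Per1 and Cry2 had log2 fold changes of 0.58 and 0.52 (limma adjusted p 0.115 and 0.114). The part of these and the muscle differences in the results for the 9 genes was not tested.

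The genes whose values ran most like each called member were sought over the 8 libraries among the other tested genes, as a description in which the group difference is shared by all points. The closest to Plaur were Ptpn12 (Pearson's r 0.992), Uap1 (0.990) and Ciapin1 (0.990). Plat was followed most closely by Nfe2l2 (0.988), AC128848.1 (0.984) and Gata6 (0.983). For Plau these were Rhob (0.984), Slbp (0.982) and Tbl2 (0.976), and for Tfpi2 they were Ccm2 (0.990), Birc3 (0.984) and RGD1562136 (0.983). Of these 12 genes, Uap1, AC128848.1 and Birc3 passed a fold of 2 with an adjusted p under 0.05, as did 2.7% of tested genes. Their log2 fold changes were 1.85, 2.15 and 1.13 (limma adjusted p 0.0114, 0.00454 and 0.0265). Slbp, Tbl2, Ptpn12, Nfe2l2, Ccm2 and RGD1562136 passed the adjusted p at a smaller fold, where 5.72% of tested genes passed at any fold. Since the 12 were chosen for likeness to called genes, these calls are no separate result.

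**Figure D5:**
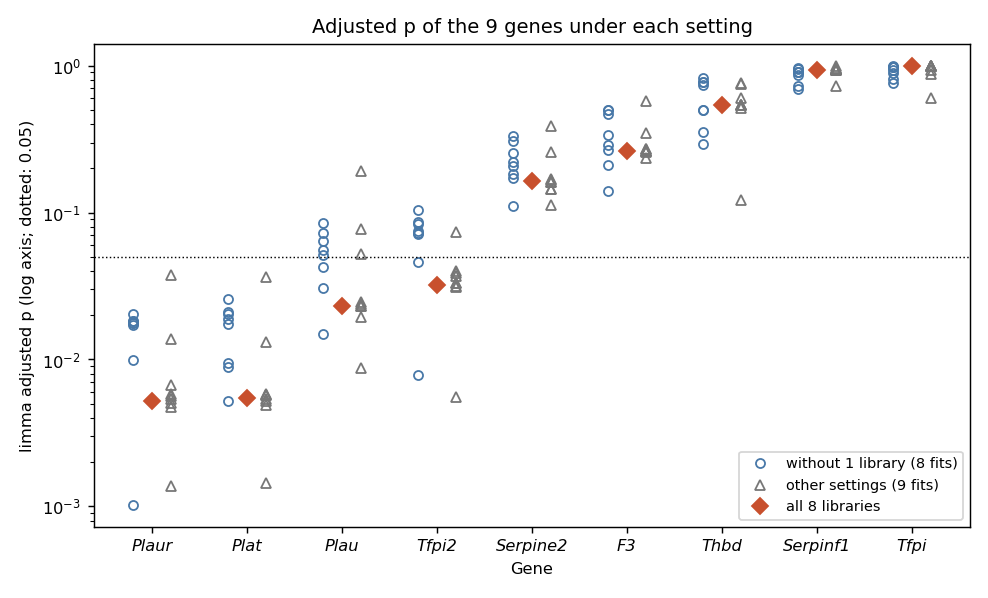
Limma adjusted p (vertical log axis) of the 9 genes with all libraries (diamonds), in the 8 fits without 1 library (circles) and in 9 other settings (triangles). The dotted line marks 0.05. Plaur and Plat stay under it throughout, Plau and Tfpi2 lie on both sides, and the other 5 genes stay above it.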

How the data were processed

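Polyadenylated RNA of 8 Achilles tendons was sequenced as stranded libraries. Per the labels and methods, the authors aligned reads with HISAT2 2.1.0 to Rnor_6.0, counted them with featureCounts 1.6.3 and normalized them with DESeq2 1.30.1. The deposited values are FPKM, with a further scaling between libraries. Their sums over the listed genes were unequal, from 554130 in NC replicate 4 to 900138 in NC replicate 2, the library with the fewest reads. Columns of log2 fold change and p-value in the deposited table hold the authors' own comparison of these groups and were left aside.

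Groups and replicate numbers came from the sample titles. Genes with at least 0.5 FPKM in at least 4 libraries were tested (13863 of 15590), as log2(FPKM + 0.5), with limma 3.58.1 (lmFit, eBayes with trend, two-sided) in R 4.3.3. Fold changes on this scale understate those of low genes. Whole reads were recovered for 99.99% of genes (tolerance 0.02 reads) in Python 3.11.15 with numpy 2.4.6. On simulated reads with a fold of 4, the fit called 97% of 200 changed genes, while unchanged genes made up 4.90% of what it called. The simulation gave all genes the same spread, and Plat, Plau and Tfpi2 had smaller folds than 4. These shares therefore do not carry over to the calls reported here.

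The members and lists were chosen with earlier results of these data known. Some listed genes are not reported here and are left out of the list counts, though they stayed in the fit. Named from the lists were genes with an adjusted p under 0.05 and up to 4 others of highest FPKM, and the 3 genes most like each called member, with further list genes named after their values were seen. Alternatives were other pseudocounts (0.1 and 1), filters (none, or a mean of at least 2 FPKM), scalings (quantile, and sums set equal as TPM), array weights, the replicate number as a block, leaving out each library, and limma's voom on recovered reads. No genome of the build was used, so genes carry no coordinates, and promoter windows come from RefSeq (GRCr8). Since nothing states more than the titles, p-values measure the spread between these samples.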

Additional observations from a re-analysis of the deposited data

How the results depend on the processing

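Plaur and Plat kept their direction and an adjusted p under 0.05 in limma under every alternative run. Plau (log2 fold change 0.75) lost its call with quantile scaling (0.66, adjusted p 0.0523), with library sums set equal (0.76, adjusted p 0.192) and with the replicate block (0.75, adjusted p 0.0775), and ranged from 0.66 to 0.88 when each library was left out. Tfpi2 lost its call with library sums set equal (1.03, adjusted p 0.0741) and ranged from 0.87 to 1.17 without single libraries. The signs of the near-zero changes turned for Tfpi (-0.040 with quantile scaling, -0.057 to 0.071 without single libraries) and for Serpinf1 (-0.13 to 0.29 without single libraries). The sign of no other member turned. Near-zero changes of further pathway genes, such as that of Vwf (-0.25 to 0.18 without single libraries), turned as well. The cause of these changes was not tested.

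The number of members called higher past a fold of 2 went from 2 to 4 with the adjusted p alone, which drops the fold. It was 3, with Tfpi2 added, under a pseudocount of 0.1, quantile scaling, array weights and voom, and when control 2 or runner 4 was dropped. The number called at any fold was 2 with library sums set equal and 2 to 4 when libraries were left out, against 4. It was 3 without 0 h p.r. replicate 3 and 2 without NC replicate 1, 3 or 4 and without 0 h p.r. replicate 1 or 2. Of the further pathway genes, the 1 called (Procr) became 0 with quantile scaling, 0 with library sums set equal and 4 with array weights, and 0 to 2 when libraries were left out. With the replicate block Procr lost its call (adjusted p 0.101) and Serpina1 was called in its place. Over all tested genes, the 374 called past both thresholds became 166 with library sums set equal and 212 with the block, and 195 to 516 when libraries were left out. The titles' shared replicate numbers do not pair the rats, since the deviations of same-numbered libraries had correlations of -0.14, -0.071, 0.072 and 0.0056. The scalings moved the median of all genes by under 0.03. At these depths the few reads of Plg and Serpinf2 allow no comparison.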
